A study of Mus musculus with 9 samples.

Results

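The proteasome genes analysed here are the 46 genes whose symbol begins with Psma to Psmg and a number, leaving out Psmb8 and Psmb9, and which held 10 or more reads summed over all libraries. They are 46 of the 23337 genes counted in the series. The name pattern alone took in 49 genes, and Psmb11, the thymoproteasome subunit, did not reach the minimum with 1 read in all. RNA-seq counts came from CD11b+ bone marrow cells of 9 male C57BL/6 mice, with 3 mice in each of 3 groups. The methods of the study give the mice as a few weeks old when obtained. PBS mice received 100 µl of PBS into the tail vein on days 1, 3 and 5. EnzR exosome mice received instead 100 µl with 10 µg of vesicle protein on those days, the vesicles coming from enzalutamide-resistant CWR-R1 human prostate cancer cells, which is a single cell line. EnzR exosome + HDL NP mice received the same vesicles and also HDL NPs, synthetic particles that mimic high-density lipoprotein, on days 0, 2 and 4, at 1 µM by the labels, while the methods of the study give another dose. No group received HDL NPs alone, so the particles were measured only together with the vesicles. The labels name the replicates but do not say how litters or cages were shared.

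The proteasome degrades proteins that carry ubiquitin chains. Its 20S core is a barrel of alpha rings, which gate the entry, around beta rings, which hold the proteolytic sites of Psmb6 (caspase-like), Psmb7 (trypsin-like) and Psmb5 (chymotrypsin-like). The 19S cap binds ubiquitin chains through its non-ATPase (Psmd) subunits and unfolds the substrate with its ring of ATPases (Psmc). Interferon replaces the catalytic beta subunits by Psmb9, Psmb10 and Psmb8 to make the immunoproteasome, and raises the activator subunits Psme1 and Psme2, which serve in antigen processing. Proteasomes destroy cyclins, securin and cell cycle inhibitors, and their subunits are therefore listed as members of many cell cycle pathways.

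The 46 genes held 8 alpha ring, 7 beta ring, 6 ATPase and 11 non-ATPase subunits, the immunoproteasome subunit Psmb10, 3 chaperones of 19S assembly, 4 chaperones of 20S assembly, 4 activators and the inhibitor Psmf1. The remaining gene, Psmc3ip, matched by its symbol but encodes a cofactor of meiotic recombination and not a proteasome subunit. A total of 45 genes passed the filter on low counts, and Psma8, an alpha subunit of the testis, did not, with 67 reads in the 9 libraries. Read totals ran from 2575776 to 18110561 per library, and 3 reads corresponded to 0.160 to 1.65 CPM, the counts scaled to a common library size with TMM factors. Together the 46 genes took 0.167% to 0.284% of all reads.

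Before any group was compared, the libraries were found to differ in ways the labels do not give. Rn45s, the ribosomal RNA precursor, took 20.3% of the reads of PBS replicate 1, 42.7% of EnzR exosome replicate 1 and 14.2% of EnzR exosome replicate 3, against 0.657% to 2.87% in the other 6 libraries. EnzR exosome replicate 1 also had the lowest total, and its highest correlation with another library across genes was 0.919. The 7 counted markers of 8 listed for CD11b+ myeloid cells summed to 27231 to 77970 CPM in PBS mice, 11677 to 85965 CPM in EnzR exosome mice and 47246 to 105686 CPM in EnzR exosome + HDL NP mice, so the labelled cell type was present in each library. Their sum was lowest in the 3 libraries with the most Rn45s. The 9 B lineage markers summed to 17.7 to 27.1 CPM in PBS mice, 9.79 to 23.0 CPM in EnzR exosome mice and 7.96 to 23.2 CPM in EnzR exosome + HDL NP mice. The 6 macrophage markers summed to 491 to 930, 397 to 541 and 440.3 to 601 CPM in the same order, and the 6 counted T and NK markers of 7 to 25.5 to 77.9 CPM over all libraries. The part of these differences in the results on proteasome genes was not tested. The leading fold changes and the counts of proteasome genes at an unadjusted p are given below with and without libraries that moved them. Counts of groups without overlap, of other gene lists and of pathways are given with all libraries only. The 6 early granulocyte markers summed to 1712 to 2074 CPM in PBS mice, 2219 to 2293 CPM in EnzR exosome mice and 1073 to 1921 CPM in EnzR exosome + HDL NP mice.

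Levels were set side by side per kilobase of the GENCODE transcript with the longest coding sequence, as the mean CPM per kb over 9 mice. Psma7, an alpha ring subunit, was highest at 110 ± 13.9 CPM per kb (SD, n = 9), followed by Psme1 at 90.8 ± 13.0 and Psma1 at 82.8 ± 19.7. The difference between Psma7 and Psme1 was larger than either SD, and that between Psme1 and Psma1 was not. Psmb4 was the highest beta subunit at 73.5 ± 13.6 CPM per kb and Psmb5 the lowest at 19.7 ± 19.1, the latter SD being nearly as large as the mean. Within the EnzR exosome mice this order did not hold, with Psmb6 (77.3) above Psmb4 (74.9) and Psmb3 (22.5) and Psmb1 (34.0) below Psmb5 (35.3).

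Among the ATPases the means ran only from 22.1 CPM per kb (Psmc1) to 47.0 (Psmc3), and among the non-ATPase subunits from 10.5 (Psmd11) to 62.8 (Psmd8). The chaperones, which act during assembly and are not part of the finished particle, ran from 6.97 (Psmd9) to 16.4 (Psmd10) for 19S and from 6.03 (Psmg1) to 8.84 (Psmg4) for 20S. The subunits Psmd11 and Psmd7 (11.8) lay within the first range and the alpha subunit Psma5 (6.86) within the second. Psme2 was at 18.7 CPM per kb although it forms a ring together with Psme1. Psma3 was the lowest tested alpha subunit at 3.49 ± 0.398 CPM per kb, Psmf1 was at 3.95, Psmc3ip at 2.26 and Psma8 at 0.285. For 11 of the 46 genes, 50% or more of the transcript is matched at 90% identity or more by another annotated transcript. They are Psmd2 (98.2%), Psmb6 (89.9%), Psmb5 (88.4%), Psmc1 (83.0%), Psme2 (82.5%), Psmb3 (80.8%), Psma5 (76.5%), Psme1 (67.45%), Psma4 (66.9%), Psmd14 (55.0%) and Psmd11 (52.7%). For Psma3 it is 37.6%, matched by 7 other genes. The counts of these genes, and so their place in this order, are uncertain where reads could be split or dropped. The level of Psma3 also rests on a transcript of 2846 bases, of which 765 are coding.

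**Figure D1:**
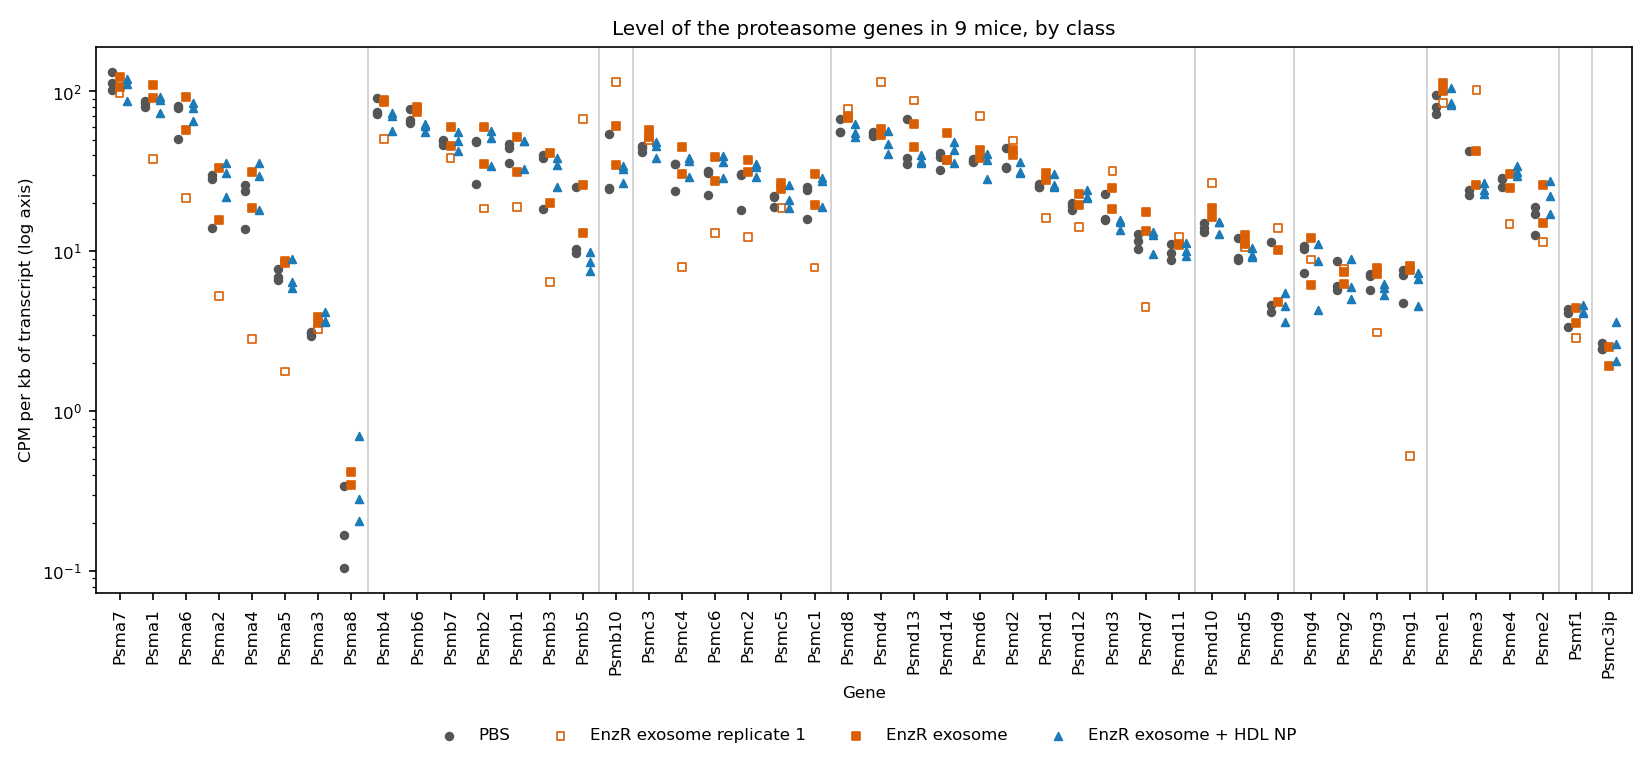
CPM per kb of transcript (log axis) of the 46 genes in each of 9 mice, ordered by class and by mean level, with EnzR exosome replicate 1 as open squares and zero values not drawn. Psma7 and Psme1 lie near the top at means of 110 and 90.8 CPM per kb, and the open squares lie at an edge of the spread for many genes.

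The genes did not move as a block between mice. In such bulk samples, a smaller share of cells that use a gene and less of its RNA per cell cannot be told apart. Psmb5 read 22.7, 9.32 and 8.81 CPM in PBS mice 1 to 3, 60.4, 11.7 and 23.3 in EnzR exosome mice and 6.81, 7.69 and 8.94 in EnzR exosome + HDL NP mice. Psma4, an alpha ring subunit, read 16.0, 28.0 and 30.3 CPM, then 3.29, 36.3 and 21.9, then 41.6, 34.3 and 21.0 in the same order. Psmb5 was thus highest in the 3 libraries with the most Rn45s, and Psma4 was lowest in EnzR exosome 1 and PBS 1. Psma2 followed the second pattern with 40.7, 87.2 and 82.9 CPM in PBS mice, 15.4, 96.7 and 45.8 in EnzR exosome mice and 104, 89.6 and 63.6 in EnzR exosome + HDL NP mice. Psmb7 varied less, between 44.4 and 69.4 CPM over all 9 mice.

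EnzR exosome replicate 1 was the highest library for 12 and the lowest for 23 of the 45 tested genes, beside 29.9% and 38.1% of all tested genes. EnzR exosome replicate 2 was the highest for 15 of the 45 and the lowest for 0, beside 8.24% and 6.44% of all genes. EnzR exosome + HDL NP replicate 3 was the lowest for 11 and the highest for 0, beside 9.06% and 11.6% of all genes. The interquartile range of the deviations of the 45 genes from their own means was 1.36 on the log2 scale in EnzR exosome replicate 1 and 0.297 to 0.530 in the other libraries.

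**Figure D2:**
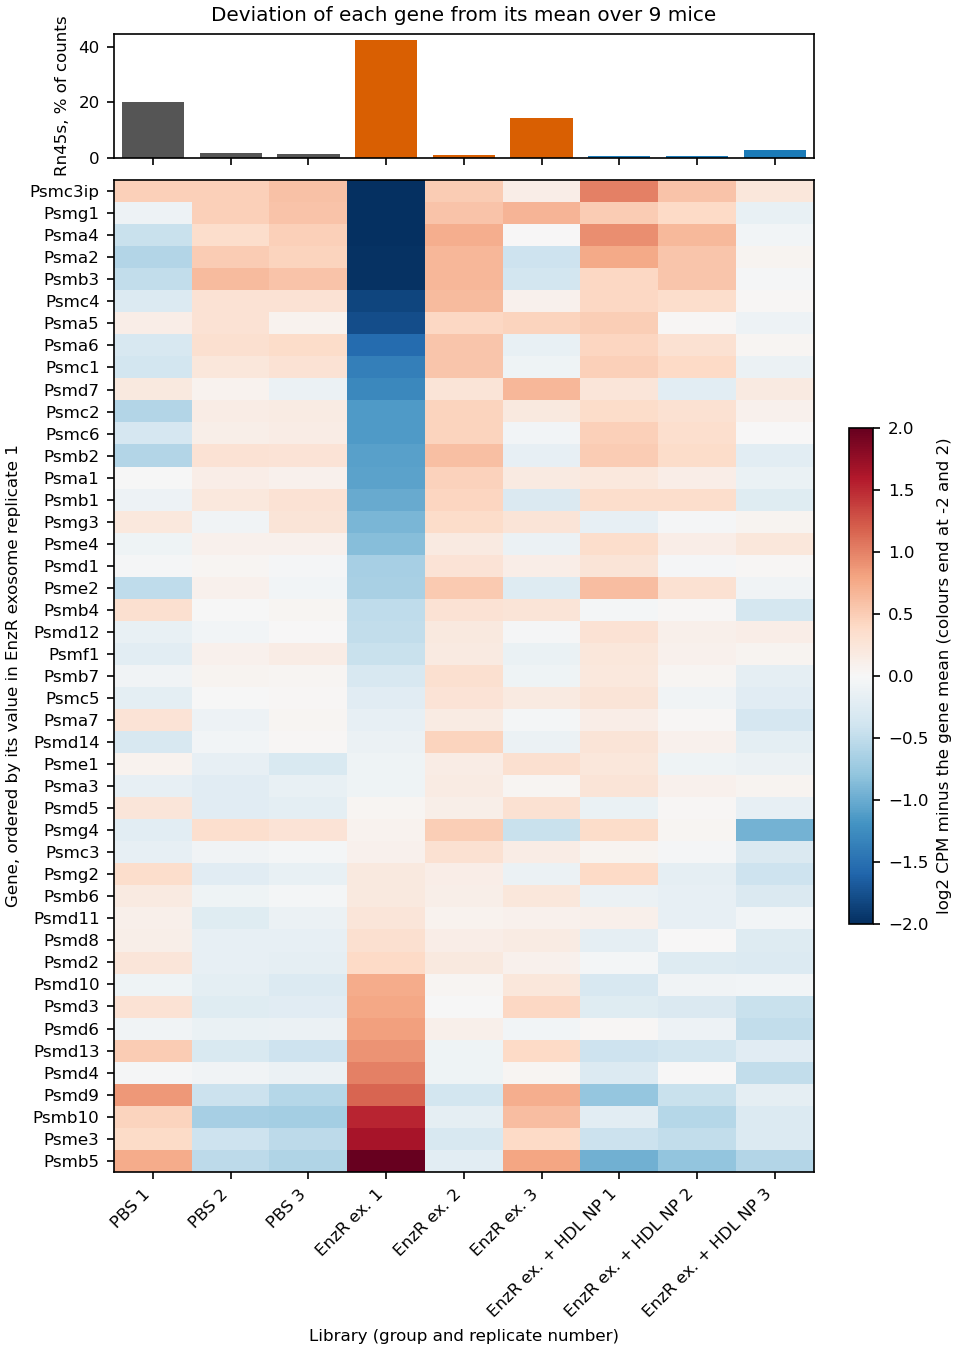
Deviation of log2 CPM from the mean over 9 mice for each of the 45 tested genes (rows, ordered by EnzR exosome replicate 1) and each library (columns), with the share of reads on Rn45s above. PBS 1, at 20.3% Rn45s, shows a paler form of the pattern of EnzR exosome 1 for many of the genes at both ends. EnzR exosome 3, at 14.2%, does so for many of the genes at the high end. At the low end it is mixed, with Psmc3ip and Psmg1, the lowest in EnzR exosome 1, at 0.14 and 0.67 in EnzR exosome 3.

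Base composition moved with these differences. Transcript GC content was known for all 45 tested genes, with a median of 49.8%, and for 90.4% of all tested genes. Across the 45 genes, Spearman's rho between GC content and the deviation was 0.365 in PBS 1, 0.337 in EnzR exosome 1 and 0.392 in EnzR exosome 3. It was -0.227 to -0.250 in PBS 2, PBS 3 and EnzR exosome 2 and -0.391 to -0.485 in the EnzR exosome + HDL NP libraries. Over all tested genes rho had the same sign in each library, from -0.354 to 0.273. Genes are not independent replicates, and these values are a description. The coding starts of 2 core subunits with opposite patterns are shown because they differ in composition, at 61.1% GC (Psmb5) and 44.4% GC (Psma4) over the first 90 coding bases of the GENCODE M21 transcripts, with no capitals since no motif is marked. The pair was picked for this difference, and other genes went against it. In EnzR exosome 1 Psmb3, with 53.8% transcript GC, deviated by -1.97, and Psmd10, with 42.3%, by 0.75. Psmb5 lies at chr14:54614119-54618022 (minus strand) and Psma4 at chr9:54950790-54958030 (plus strand) of GRCm38.
Psmb5 coding start: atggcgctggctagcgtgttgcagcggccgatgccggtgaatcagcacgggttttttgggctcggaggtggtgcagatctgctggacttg
Psma4 coding start: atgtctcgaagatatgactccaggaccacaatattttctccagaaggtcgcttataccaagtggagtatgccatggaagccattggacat

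Two-sided tests of EnzR exosome against PBS asked whether the vesicles altered these genes. By edgeR 0 of 45 genes passed an adjusted p of 0.05, beside 0% of all 12553 genes tested. The highest log2 fold changes were those of Psmb5 (1.17, SE 0.551), Psmb10 (1.00, SE 0.420), Psme3 (0.92, SE 0.429) and Psmd10 (0.53, SE 0.211). The lowest were those of Psmc3ip (-0.44), Psmb3 (-0.42), Psma2 (-0.37) and Psmb1 (-0.29). Without EnzR exosome replicate 1 the first 4 were at 0.40, 0.48, 0.21 and 0.33, and the last 4 at -0.16, -0.084, 0.021 and -0.025. Without EnzR exosome replicate 2 the last 4 were at -0.85, -1.11, -1.10 and -0.69. At an unadjusted p under 0.05, 2 genes were higher, Psmb10 and Psmd10, and 0 were lower, while 1.55% and 1.92% of all genes (3.47% together) were higher and lower. DESeq2 gave 0 of the 45 genes at an adjusted p under 0.05, beside 0.0876% of all genes, and 4 at an unadjusted p under 0.05, beside 4.49%. When same-numbered mice were fitted as pairs (a replicate block, edgeR), 5 of the 45 genes, all higher, had an unadjusted p under 0.05, beside 5.95% of all genes, and 0 passed an adjusted p of 0.05. In this comparison the 8 tested B lineage markers all had log2 fold changes below 0, with a median of -0.998 and 2 at an unadjusted p under 0.05. Of the 6 macrophage markers 5 lay below 0, with a median of -0.71 and 3 at an unadjusted p under 0.05. Of the 4 tested erythroid markers 3 lay below 0, with a median of -0.85 and 1 at an unadjusted p under 0.05. By edgeR 0 markers of these lists had an adjusted p under 0.05, and their part in the results was not tested.

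Psmb10, the trypsin-like subunit of the immunoproteasome at chr8:105935735-105938444, read 70.9, 32.8 and 32.3 CPM in PBS mice and 150, 45.6 and 79.6 in EnzR exosome mice. These groups overlapped, and EnzR exosome 2 lay below PBS 1. Psmd10, or gankyrin, a chaperone of 19S assembly, read 21.5, 19.9 and 18.8 CPM in PBS mice and 38.4, 23.4 and 26.7 in EnzR exosome mice, so that each EnzR exosome mouse lay above each PBS mouse. Its adjusted p was 0.928, as was that of Psmb10. Psme3, the nuclear activator that stimulates ubiquitin-independent degradation, read 113, 64.8 and 60.1 CPM in PBS mice and 271, 69.0 and 114 in EnzR exosome mice, with overlap.

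In all, 5 genes lay higher in each EnzR exosome mouse than in any PBS mouse, where 3.43% of all genes did so, namely Psma3, Psmc3, Psmd6, Psmd8 and Psmd10. The opposite held for 0 of the 45 and for 4.52% of all genes. Psmc3, an ATPase, read 75.9, 80.9 and 82.4 CPM in PBS mice and 90.5, 105 and 93.9 in EnzR exosome mice, a log2 difference of 0.28 (SE 0.153). Psmd8, a non-ATPase subunit, read 104, 85.8 and 85.8 CPM against 120, 105 and 108. With 3 mice against 3, an exact permutation test cannot give a p below 0.1.

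The classes lay on different sides of 0. Among the 11 non-ATPase subunits, 10 had a log2 fold change above 0, with a median of 0.25, as had the 3 chaperones of 19S assembly, with a median of 0.50. Among the 7 tested alpha subunits 1 lay above 0, with a median of -0.08, and the 7 beta subunits were divided into 3 above and 4 below. The ATPases were divided into 3 and 3. Over all classes 25 of 45 genes lay above 0, beside 46.5% of all genes, with a median of 0.07 for the 45 genes and -0.03 for all genes.

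This division did not hold without EnzR exosome replicate 1. Then 7 of 8 alpha, 6 of 6 ATPase and 11 of 11 non-ATPase subunits lay above 0, and 41 of 46 genes in all, beside 49.4% of all genes, with a median of 0.21. At an unadjusted p under 0.05 there were then 0 genes, beside 3.57% of all genes. Without EnzR exosome replicate 2 the median was -0.14, and 7 genes were higher and 4 lower at an unadjusted p under 0.05, beside 16.6% of all genes. Without PBS replicate 1 the count at an unadjusted p was 8, all higher, beside 8.31% of all genes. Without PBS replicate 1 and EnzR exosome replicate 1, the 2 libraries with the lowest totals, it was 10 of 46, all higher, beside 8.55%, and 37 of 46 genes lay above 0, beside 49.2%. Without PBS replicate 2 or 3 it was 0, beside 1.56% and 1.20%, and without EnzR exosome + HDL NP replicate 1 or 3, which enter through the shared spread, it was 1, beside 2.87% and 2.66%. Without the 3 libraries with over 10% Rn45s, which leaves EnzR exosome replicate 2 as the sole mouse of its group, 45 of 46 genes lay above 0 with a median of 0.28, beside 49.2% of all genes, and 0 had an adjusted p under 0.05, with the spread taken from the other groups.

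Limma voom with sample quality weights, which counts libraries that stand apart for less, gave another count. By this fit 11 of the 45 passed an adjusted p of 0.05, beside 15.7% of all genes. Psmb5, Psmb10, Psmd3, Psmd5, Psmd8, Psmd9, Psmd10, Psmd13, Psme1 and Psme3 were higher and Psmb3 was lower in EnzR exosome mice. Limma voom without these weights called 0 genes of the 12553, and 1 of the 45 had an unadjusted p under 0.05, beside 3.11% of all genes.

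**Figure D3:**
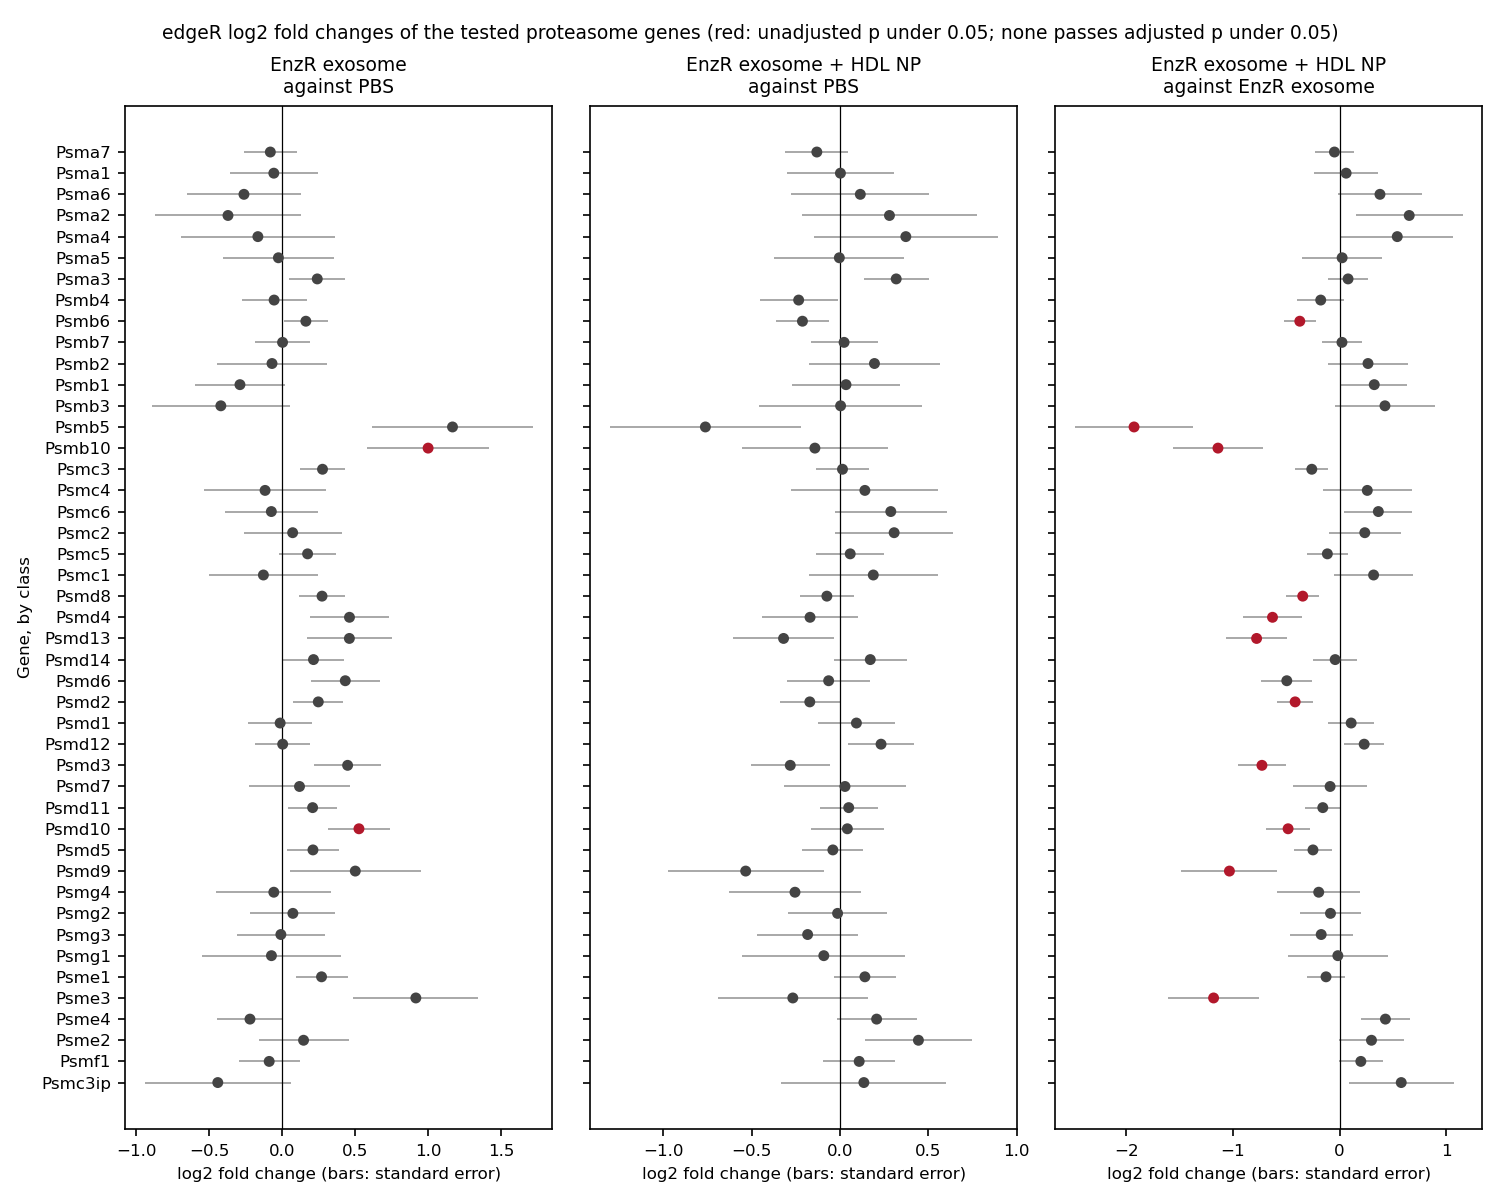
Log2 fold changes by edgeR (points) with their standard errors (bars) for the 45 tested genes, by class, in each comparison, with red points at an unadjusted p under 0.05. The red points number 2 in the comparison of EnzR exosome with PBS, 0 in that of EnzR exosome + HDL NP with PBS and 11 in that of both vesicle groups, where all lie below 0.

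The comparison of EnzR exosome + HDL NP with PBS shares its PBS mice with the former one. By edgeR 0 of 45 genes passed an adjusted p of 0.05, beside 0% of all genes, and 0 had an unadjusted p under 0.05, beside 2.13% of all genes (1.02% higher and 1.12% lower). DESeq2, which called 0.0637% of all genes, and limma voom, which called 0%, also gave 0 of 45 genes at an adjusted p under 0.05. The 45 log2 fold changes lay between -0.76 and 0.44 with a median of 0.02, beside -0.01 for all genes, and 26 lay above 0, beside 48.9% of all genes. The highest were those of Psme2 (0.44, SE 0.302), Psma4 (0.37), Psma3 (0.32) and Psmc2 (0.31), and the lowest those of Psmb5 (-0.76, SE 0.541), Psmd9 (-0.53), Psmd13 (-0.32) and Psmd3 (-0.28). Without PBS replicate 1 Psma4 was at 0.15, Psmc2 at 0.10, Psmb5 at -0.22 and Psmd3 at -0.091, and without EnzR exosome + HDL NP replicate 1 Psme2 was at 0.27. Psma4 ranged from 0.15 to 0.61 on leaving out 1 library in turn.

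Psma3, an alpha ring subunit, read 8.80, 8.46 and 8.92 CPM in PBS mice and 11.9, 10.5 and 10.3 in EnzR exosome + HDL NP mice. It was 1 of 3 genes that lay higher in each EnzR exosome + HDL NP mouse, with Psmd12, a scaffold subunit of the 19S lid, and Psme4, an activator that acts in sperm and in DNA repair, where 6.96% of all genes did so. Psmb6 was the gene that lay lower in each, at 61.6, 51.0 and 52.9 CPM in PBS mice and 49.99, 48.3 and 44.4 in EnzR exosome + HDL NP mice, where 6.21% of all genes did so. Its log2 fold change was -0.21 (SE 0.148, adjusted p by edgeR 0.9997), and -0.26 to -0.13 on leaving out 1 library in turn. For Psmd9 and Psmd13 the sign rested on PBS replicate 1, without which their log2 fold changes were 0.05 and 0.03. In this comparison all 8 B lineage and all 6 macrophage markers tested lay below 0, with medians of -0.70 and -0.60 and 1 of each at an unadjusted p under 0.05, as did 5 of 6 early granulocyte markers, with a median of -0.52 and 1 at an unadjusted p under 0.05. The tested erythroid (4), platelet (5) and T and NK markers (4) lay below 0 as well, with medians of -0.62, -0.64 and -0.32 and 0 at an unadjusted p under 0.05. Their part in the results was not tested.

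The comparison of EnzR exosome + HDL NP with EnzR exosome asked whether the particles altered the response to the vesicles. By edgeR 0 of 45 genes passed an adjusted p of 0.05, beside 0% of all genes, and the lowest adjusted p among them was 0.461. At an unadjusted p under 0.05, 11 genes were lower in EnzR exosome + HDL NP mice (24.4% of 45), beside 6.97% of all genes, and 0 were higher, beside 3.58%. Psmb5 had the lowest log2 fold change at -1.93 (SE 0.557, edgeR unadjusted p = 0.00567), followed by Psme3 at -1.18 (SE 0.430), Psmb10 at -1.14 (SE 0.419) and Psmd9 at -1.03 (SE 0.451). Without EnzR exosome replicate 1 they were at -1.15, -0.48, -0.62 and -0.72, and without the 3 libraries with over 10% Rn45s at -0.58, -0.076, -0.17 and -0.094. The other 7 were Psmd13 (-0.78), Psmd3 (-0.73), Psmd4 (-0.63), Psmd10 (-0.48), Psmd2 (-0.42), Psmb6 (-0.37) and Psmd8 (-0.35). These were at -0.52, -0.54, -0.22, -0.29, -0.34, -0.37 and -0.30 without EnzR exosome replicate 1. DESeq2 gave 0 of the 45 genes at an adjusted p under 0.05, beside 0.00797% of all genes, and 11 at an unadjusted p under 0.05, beside 13.4%. The early granulocyte markers had a median log2 fold change of -0.47 in this comparison, with 5 of 6 below 0 and 2 of them at an unadjusted p under 0.05. Of the 7 CD11b+ myeloid markers 6 lay above 0, with a median of 0.44 and 0 at an unadjusted p under 0.05. The part of either list in the result was not tested.

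Of these 11 genes, 5 encode 19S non-ATPase subunits, among them Psmd4, a ubiquitin receptor, and Psmd2, a scaffold of the base, and 2 encode chaperones of 19S assembly, Psmd9 and Psmd10. Psmd4 read 147, 68.7 and 74.2 CPM in EnzR exosome mice and 60.1, 72.5 and 51.6 in EnzR exosome + HDL NP mice. Psmd3, a lid subunit, read 68.6, 39.8 and 53.3 CPM against 33.9, 32.8 and 29.3, with no overlap. Psmd13, a lid subunit, read 174, 88.8 and 124 CPM against 70.8, 73.0 and 80.1, also with no overlap.

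Psmb5 read 60.4, 11.7 and 23.3 CPM in EnzR exosome mice, from 110, 219 and 197 reads, and 6.81 to 8.94 CPM in EnzR exosome + HDL NP mice. The PBS mice, at 8.81 to 22.7 CPM, overlapped both of these groups. Psmb10 read 150, 45.6 and 79.6 CPM against 44.6, 34.9 and 42.8, and each EnzR exosome mouse lay above each EnzR exosome + HDL NP mouse, though narrowly at 45.6 against 44.6. In all 10 genes lay lower in each EnzR exosome + HDL NP mouse, where 8.58% of all genes did so: Psmb5, Psmb6, Psmb10, Psmc3, Psmd2, Psmd3, Psmd5, Psmd8, Psmd10 and Psmd13. The opposite held for 0 of the 45 and for 8.99% of all genes.

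The highest log2 fold changes were those of Psma2 (0.65, SE 0.501), Psmc3ip (0.58, SE 0.491), Psma4 (0.54, SE 0.526) and Psme4 (0.43, SE 0.228), with unadjusted p values of 0.0873 or more by edgeR. Without EnzR exosome replicate 1 these were at 0.25, 0.30, 0.14 and 0.19, and without EnzR exosome replicate 2 at 1.38, 0.99, 1.125 and 0.64. Among the alpha subunits 6 of 7 lay above 0, with a median of 0.08, and among the non-ATPase subunits 2 of 11, with a median of -0.35. The 3 chaperones of 19S assembly lay below 0, as did the 4 of 20S assembly by edgeR, where Psmg1 was at -0.02 (SE 0.469) and by DESeq2 at 0.03. Over all classes 20 of 45 lay above 0, beside 52.8% of all genes, with a median of -0.05 beside 0.03. The division between classes depended on the libraries kept. Without EnzR exosome replicate 1 the medians of the alpha and non-ATPase subunits stayed on different sides of 0. Leaving out EnzR exosome replicate 1 put 5 of 8 alpha subunits above 0 (median 0.02) and 1 of 11 non-ATPase subunits (median -0.22), moved the median of the ATPases from 0.25 to -0.10, and left 14 of 46 genes above 0. Leaving out the 3 libraries with over 10% Rn45s put 1 of 8 alpha subunits above 0, with a median of -0.20, beside -0.25 for the non-ATPase subunits. The count above 0 was 26 of 46 without EnzR exosome + HDL NP replicate 3.

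The count of 11 depended on single mice and on the fit. With all mice kept, it was 7 by limma voom without weights, beside 7.76% of all genes, and 7 of 46 with no filter on low counts, beside 8.40%. It was 4 without EnzR exosome replicate 1 (Psmb5 at -1.15, SE 0.418, edgeR unadjusted p = 0.0198, and Psmd3 at -0.54, SE 0.208, among them), beside 5.19% of all genes in either direction, where all 9 libraries gave 10.6%. It was 4 without EnzR exosome + HDL NP replicate 2, beside 5.23%, and 5 without EnzR exosome + HDL NP replicate 1 or 3, beside 6.38% and 5.59%. Without EnzR exosome replicate 2 it was 20, of which 8 were higher, beside 29.3% of all genes. Without the 3 libraries with over 10% Rn45s it was 5, beside 4.23%, and 3 of 46 genes lay above 0, beside 50.8% of all genes. That setting leaves 1 EnzR exosome mouse, which is assumed to vary like the other groups. With library size in place of TMM factors the count was 4, beside 7.23%, and with an offset for GC content 9, beside 9.32%. Limma voom with sample quality weights gave 5 genes at an adjusted p under 0.05, beside 5.09% of all genes, and these were Psmb5, Psmb10, Psmd3, Psmd9 and Psmd13, all lower.

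**Figure D4:**
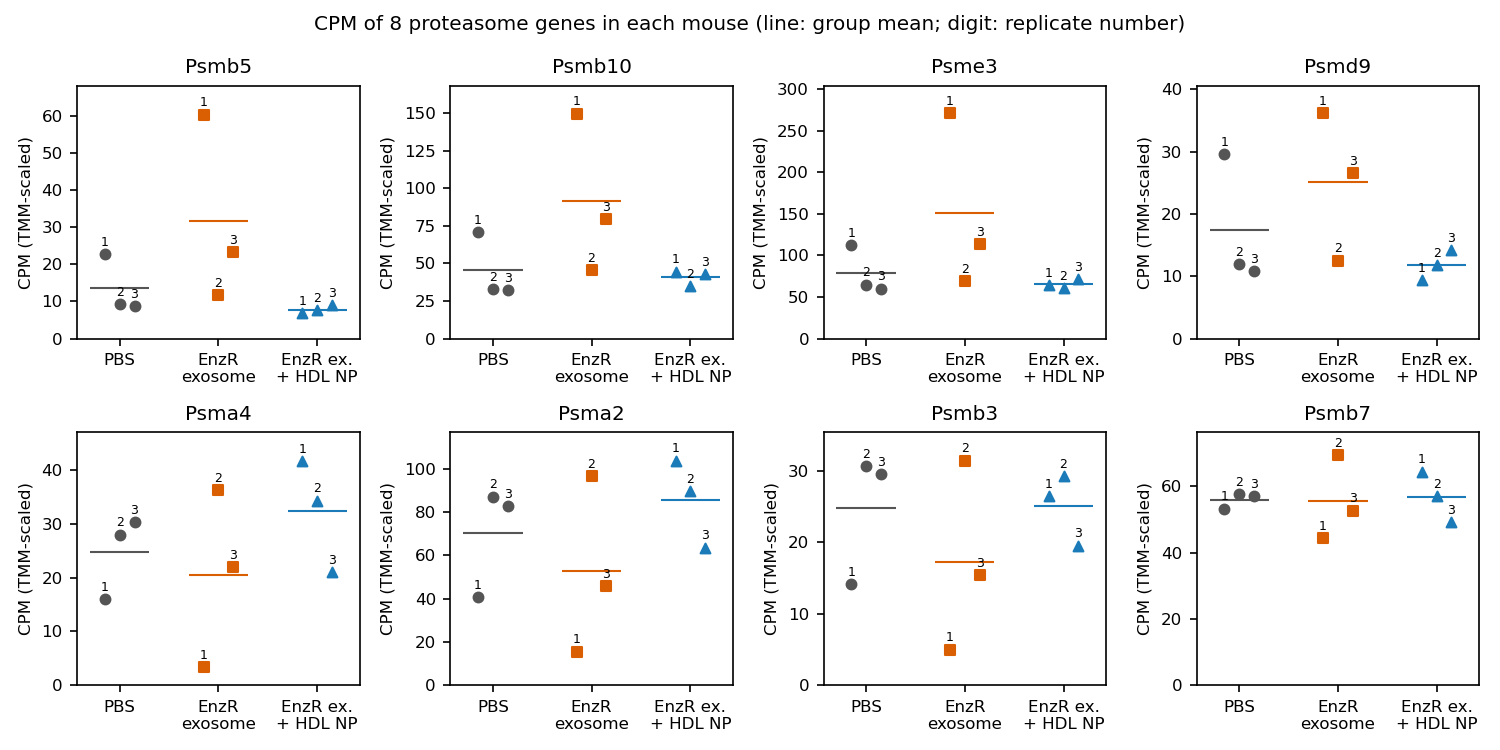
CPM of 8 genes in each mouse by group, with the replicate number above each point and the group mean as a line. Psmb5, Psmb10, Psme3 and Psmd9 are highest in EnzR exosome 1, where Psma4, Psma2 and Psmb3 are lowest, and Psmb7 keeps within 44.4 to 69.4 CPM.

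The fold changes also moved with GC content. Across the 45 genes, Spearman's rho between GC content and the log2 fold change was 0.339 for EnzR exosome against PBS, -0.604 for EnzR exosome + HDL NP against PBS and -0.525 for EnzR exosome + HDL NP against EnzR exosome. Across all tested genes with a GC value it was 0.167, -0.321 and -0.325. The part of GC content in the results beyond the offset given above was not tested.

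The interferon-inducible proteasome genes did not form 1 pattern. Psmb10 had log2 fold changes of 1.00, -0.14 and -1.14 in the 3 comparisons, in the order given, and was above 0 in the second without PBS replicate 1 (0.32). Psme1 had 0.27, 0.14 and -0.13 and Psme2 0.15, 0.44 and 0.30. Leaving out 1 library in turn gave 0.16 to 0.37, 0.035 to 0.25 and -0.25 to -0.016 for Psme1. For Psme2 it gave -0.25 to 0.33, 0.27 to 0.61 and 0.11 to 0.70. Psmb8 and Psmb9, left out of the 46 genes, had 0.12, 0.28 and 0.16, and 0.14, 0.12 and -0.02. Of 22 interferon-stimulated genes listed apart from the proteasome, all 22 lay above 0 against PBS in both vesicle groups, with medians of 0.87 and 1.00, and 0 had an adjusted p under 0.05 by edgeR, with 9 and 14 at an unadjusted p under 0.05, beside 3.47% and 2.13% of all genes. In EnzR exosome + HDL NP against EnzR exosome 14 of the 22 lay above and 8 below 0, with a median of 0.31, and 2 were higher and 1 lower at an unadjusted p under 0.05, beside 10.6% of all genes.

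The ratio of Psmb10 to Psmb7, the trypsin-like subunit that it replaces, was 1.18, 0.504 and 0.501 per kb in PBS mice, 2.98, 0.582 and 1.34 in EnzR exosome mice and 0.611, 0.540 and 0.769 in EnzR exosome + HDL NP mice. The ratio of Psmb8 to Psmb5 moved the other way, at 2.02, 5.71 and 5.87, then 0.557, 6.27 and 2.39, then 10.3, 7.80 and 5.94. The ratio of Psmb9 to Psmb6 was between 0.254 and 0.619 in all 9 mice. The first pair thus had its highest, and the second its lowest, ratios in the same 3 libraries, those with the most Rn45s. Other transcripts match 88.4% of the Psmb5 and 89.9% of the Psmb6 transcript, so the ratios to these 2 genes are uncertain.

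Of 30 further genes of the proteasome pathway, deubiquitinases, shuttle factors and regulators among them, 29 were counted and tested, 3 of them under older symbols, and Paaf1 was not analysed here. By edgeR 0 of 29 passed an adjusted p of 0.05 in any comparison. Against PBS, 8 lay above and 21 below 0 in EnzR exosome mice, beside 46.5% of all genes above 0. In EnzR exosome + HDL NP mice 15 lay above and 14 below, beside 48.9%. At an unadjusted p under 0.05 by edgeR there were 0 in both, beside 3.47% and 2.13% of all genes. Shfm1, the smallest 19S subunit, which the pattern of symbols does not take in, read 1044, 286 and 493 CPM in EnzR exosome mice and 223, 264 and 233 in EnzR exosome + HDL NP mice, a log2 fold change of -1.34 (SE 0.426, adjusted p by edgeR 0.461), and lay between 238 and 486 CPM in PBS mice. The log2 fold change of Shfm1 was -0.71 (SE 0.318) without EnzR exosome replicate 1, and without the 3 libraries with over 10% Rn45s -0.26. Shfm1 was the only 1 of the 29 at an unadjusted p under 0.05 in that comparison, beside 10.6% of all genes. There 20 of the 29 lay above 0, beside 52.8% of all genes. Nfe2l1, the transcription factor that raises proteasome subunits when the proteasome is blocked, had log2 fold changes of 0.37, -0.15 and -0.52. These were 0.04, -0.16 and -0.20 without EnzR exosome replicate 1, and -0.14, -0.10 and 0.037 without the 3 libraries with over 10% Rn45s.

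The proximal upstream bases of 2 catalytic subunits are shown because both hold the motif TGACNNNGC, the core of the antioxidant response element to which Nfe2l1 binds. They are the 100 bases before the RefSeq start (GRCm38.p6), with the motif in capitals, of Psmb5 (chr14:54617996-54618095, minus strand) and Psmb6 (chr11:70525257-70525356, plus strand).
Psmb5 upstream: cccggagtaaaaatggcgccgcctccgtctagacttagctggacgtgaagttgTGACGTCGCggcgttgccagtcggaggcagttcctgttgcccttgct
Psmb6 upstream: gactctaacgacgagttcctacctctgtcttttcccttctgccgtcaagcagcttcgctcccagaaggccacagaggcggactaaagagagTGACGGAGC

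The motif begins at -47 in Psmb5 and at -9 in Psmb6, counted from the start. RefSeq promoters were found for 38 of the 46 genes. The third catalytic subunit, Psmb7, had none and was not searched, nor were Psma8, Psmb1, Psmb2, Psmc3, Psmd3, Psmd7 and Psmg2. Searched on both strands of the 250 upstream bases, TGACNNNGC was present in 5 of the 38 (13.2%), namely Psmb5, Psmb6, Psmc6, Psmd9 and Psmd12, and in 11.5% of all 27025 genes with a promoter. The interferon-stimulated response motif, GAAA and again GAAA with any 2 bases between, was present in Psmb3, Psmd4 and Psmd9 (7.89%), against 3.46% of all genes, and the interferon-gamma motif TTCNNNGAA in Psmg1 (2.63%), against 8.13%. The 5 genes with TGACNNNGC had log2 fold changes on both sides of 0 in each comparison, and a match of letters is not a measured binding site.

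Proteasome genes made up a large share of cell cycle pathways. Of 48 Reactome pathways with 10 to 500 tested genes that were picked by cell cycle words in their names, 2 were matched by letters alone and do not concern the cell cycle, and these held 0 of the 45 genes. A total of 26 pathways held proteasome genes, 23 of them at 20% or more of their genes, and 40 of the 45 genes belonged to at least 1 of them. The share was largest in the p53-independent G1/S DNA damage checkpoint, with 40 of 49 genes (81.6%). Each of the 23 held 39 or 40 proteasome genes, so these pathways overlap and counts of them are not counts of separate results.

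The proteasome genes left out here were those of the 45 tested, so Psmb8 and Psmb9 stayed among the other genes of the pathways. In EnzR exosome against PBS the median log2 fold change of the pathways fell on leaving out the proteasome genes in 17 of the 23, by 0.13 at most. It passed from above to below 0 in 3, among them the p53-dependent G1/S checkpoint, from 0.02 to -0.11. Another of them, the p53-dependent G1 DNA damage response, also had 52 tested genes and gave the same values. In Mitotic G1-G1/S phases, where 39 of 118 genes are proteasome genes, the median was 0.12 with and 0.12 without them. The latter was the value of Psmb8 itself. In EnzR exosome + HDL NP against PBS it fell in 20 of 23 and changed sign in 12, with all differences between -0.07 and 0.02. In EnzR exosome + HDL NP against EnzR exosome it fell in 11 of 23 and changed sign in 3, with differences from -0.07 to 0.16. The 40 genes had medians of 0.13, 0.03 and -0.05 in the 3 comparisons. A list of 10 cycling genes without proteasome genes had medians of 0.21, -0.01 and -0.16. After adjustment, edgeR left 0 of these 10 below the threshold of 0.05 in each comparison. Before adjustment, its p values fell below 0.05 for 2 (higher), 0 and 3 (lower) cycling genes in the same order. The shares over all tested genes were 3.47%, 2.13% and 10.6%.

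**Figure D5:**
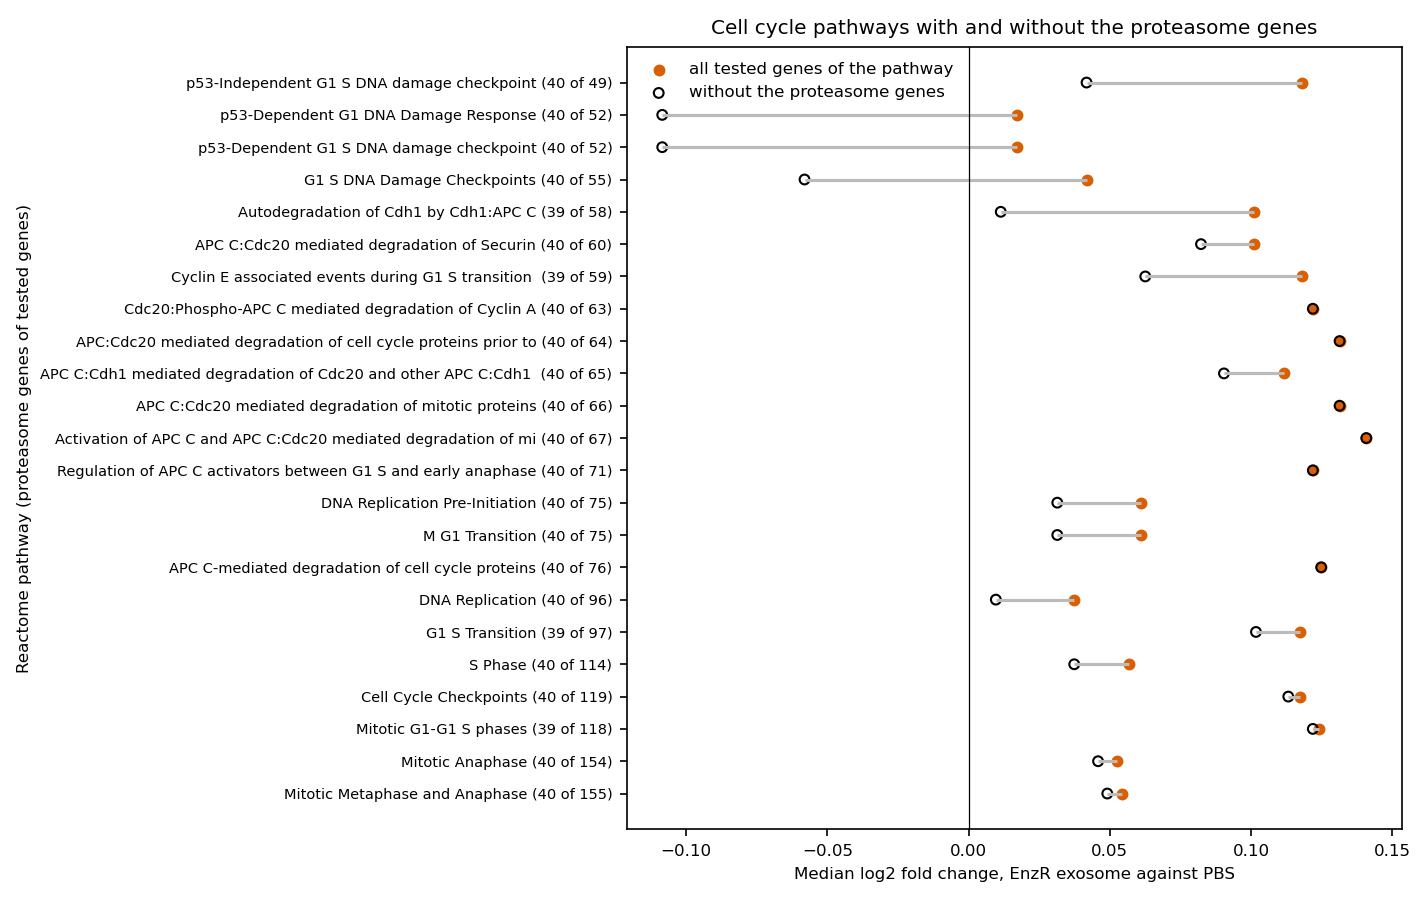
Median log2 fold change of EnzR exosome against PBS for the 23 Reactome cell cycle pathways with 20% or more proteasome genes, over all tested genes (filled) and without the proteasome genes (open), with the number of proteasome genes of tested genes in brackets. Psmb8 and Psmb9 are not counted among the proteasome genes and were not left out. The median is lower without the proteasome genes in 17 of the 23 pathways and by 0.13 at most.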

How the data were processed

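The authors deposited 1 table of read counts by gene for every library, not normalized. Per the study's methods, stranded total RNA libraries were made after rRNA depletion, adapters were trimmed (cutadapt 1.13 in the submitters' processing notes), rRNA reads were filtered, and reads were aligned to mm10 with STAR and counted with HTSeq 0.6.1p1 on the UCSC annotation. Samples were grouped by their titles. Tests used edgeR 4.0.16 under R 4.3.3 (TMM factors, default low-count filter, robust quasi-likelihood fit to all 9 libraries, Benjamini-Hochberg adjustment over 12553 genes, threshold 0.05). CPM values are TMM-scaled, and log2 CPM has a prior count of 2. DESeq2 1.42.0 and limma 3.58.1 were alternatives. Fits were tested on simulated data. Reactome pathways came from an R package of mouse pathways, and transcripts from GENCODE M21. The genes named are the 4 highest and 4 lowest log2 fold changes of each comparison, Psmb10, Psme1 and Psme2, Psmb5, Psmb6 and Psmb7, the highest and lowest level in each class, and genes under the filter; other names follow counts and were chosen after their values were seen. The members and lists were chosen with earlier results of these data known. Separate mice are replicates, and floors of 3 reads cover counting error only. Deviations of same-numbered PBS and EnzR exosome libraries correlated at 0.473, 0.492 and 0.131, each over 0.1. Those of different numbers ran from -0.533 (PBS 1 and EnzR exosome 2) to 0.429 (PBS 3 and EnzR exosome 2). These values do not show that a number marks a pair, and the labels do not say what a number shares. The main tests therefore took no pairs, and the replicate block was an alternative. In the other comparisons not every same-numbered pair was over 0.1.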

Additional observations from a re-analysis of the deposited data

How the results depend on the processing

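Of 859 values of 36 single-gene fold changes under 24 other settings, 47 had another sign, and 21 of the 36 kept their sign throughout. The number of genes at an adjusted p under 0.05 differed from 0 only with limma voom with sample quality weights, at 11 (EnzR exosome against PBS) and 5 (EnzR exosome + HDL NP against EnzR exosome). The cause was not tested. Depth limited EnzR exosome replicate 1 the most, where 3 reads are 1.65 CPM. With library size only, the median of all genes moved to -0.18, 0.05 and 0.24 in the 3 comparisons, and the changes below under that setting are to be read against it. The settings without the 3 libraries with over 10% Rn45s and with the GC offset were added after seeing the data.

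In EnzR exosome against PBS, without those 3 libraries, the log2 fold change of Psmb3 was 0.066, of Psma2 0.19 and of Psmb1 0.18. Psme2 was at -0.15 with sample quality weights. With library size only, Psmb6 was at -0.0097 and Psmb7 at -0.15. Psmb7, near 0 in each comparison, was at -0.025 with no filter on low counts, -0.0056 with 10 counts in every library, -0.0098 with the replicate block and -0.0785 with quality weights. Leaving out 1 library in turn gave -1.10 to 0.021 for Psma2, -0.25 to 0.33 for Psme2 and -0.17 to 0.13 for Psmb7.

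In EnzR exosome + HDL NP against PBS, without the 2 libraries with the lowest totals and without those with over 10% Rn45s, Psmd9 was at 0.0496 and 0.0484, Psmd13 at 0.0330 and 0.0326, Psmb10 at 0.33 and 0.33, and Psmb7 at -0.0082 and -0.0080. Psmb10 was at 0.012 by limma voom, 0.24 with quality weights and 0.049 with the GC offset and replicate block. Psmb7 was at -0.0196 with quality weights, -0.023 with the GC offset and -0.026 with the block added. Leaving out 1 library in turn gave -0.80 to 0.0488 for Psmd9, -0.50 to 0.0314 for Psmd13, -0.35 to 0.32 for Psmb10, -0.065 to 0.12 for Psmb7, and -0.046 to 0.12 for the median of the proteasome genes, the highest without EnzR exosome + HDL NP replicate 3.

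In EnzR exosome + HDL NP against EnzR exosome, without the 3 libraries with over 10% Rn45s, Psma4 was at -0.17, Psma2 at -0.18, Psme2 at -0.21 and Psmb7 at -0.29. Psme1 was at 0.095 with library size only. Psmb7 was at -0.0034 by DESeq2, -0.0197 by limma voom, -0.11 without the 2 lowest totals, -0.056 with the GC offset and -0.054 with the block added. Leaving out 1 library in turn gave -0.11 to 0.19 for Psmb7 and -0.17 to 0.14 for the median.

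Deviations of same-numbered libraries correlated at a mean of 0.174 over 9 pairs (-0.175 to 0.492), against -0.0758 over the 18 pairs of different numbers, and 5 of 9 libraries were most alike to one of their own number. With the replicate block 0 proteasome genes had an adjusted p under 0.05, and 5, 0 and 11 had an unadjusted p under 0.05 in the 3 comparisons in the same order, beside 5.95%, 3.79% and 18.2% of all genes.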
